A study of Mus musculus with 10 samples.

Results

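The mitosis and spindle genes are a fixed set of 47 genes named by symbol, whose products switch a cell into mitosis, build the spindle, hold and separate the chromosomes and divide the cell. Of these, 45 were matched to a probe set through the platform annotation, each to 1 probe set, and all 45 passed the filter on low values. They stand among 21792 tested probe sets, of which 19239 carry a gene symbol. Ccnb1 and Foxm1 were not matched and are not analysed here.

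Mitosis is driven by the kinase CDK1 with its cyclins, which is turned on by CDC25 phosphatases and supported by the Polo-like and Aurora kinases. Kinetochores tie chromosomes to spindle microtubules, and the spindle assembly checkpoint holds back the anaphase-promoting complex (APC/C) until every chromosome is attached. The APC/C then marks cyclins and securin for destruction, separase opens the cohesin rings, and the cell divides. Most of these genes are transcribed late in the cell cycle, so their messages are abundant in dividing tumors and scarce in resting tissue.

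The tumors were grown under the skin of B6 mice from B16OVA cells, mouse melanoma cells engineered to make ovalbumin. In the BO-112 group (5 mice), tumors were injected with BO-112, Poly I:C, a synthetic double-stranded RNA, packed with the carrier polyethylenimine. In the Vehicle group (5 mice), tumors received the same volume of 5% glucose, so the carrier alone is not among these groups. Per the methods, tumors for RNA were taken after repeated injections, and total RNA of each whole tumor was measured on 1 Clariom S Mouse array per mouse. Values are log2 expression values from Robust Multichip Average (RMA), on which a difference of 1 is a doubling, and changes are BO-112 minus Vehicle. The labels name separate mice, and each group comes from a single cell line. All 10 melanocyte lineage markers, such as Dct, Pmel and Tyrp1, exceeded the 75th percentile of the negative control probe sets on every array.

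Mitosis and spindle genes were lower in BO-112 tumors in nearly every case. The log2 fold change was negative for 44 of the 45 genes, with a median of -0.77 and a range from -1.31 for Kif4 to 0.44 for Pttg1. Over all tested probe sets the median was 0.01 and 47.7% were negative. In the limma fit 9 of 45 genes (20%) fell at an adjusted p under 0.05 and 0 rose, beside 2.79% lower and 2.43% higher (5.22% in either direction) among all tested probe sets. The genes that fell were Ccna2, Ccnb2, Cdc25b, Ndc80, Nuf2, Spc24, Spc25, Smc2 and Top2a. The adjusted p of the other 36 lay between 0.0504 for Incenp and 0.515 for Espl1, and at an unadjusted p under 0.05 the counts were 42 lower and 1 higher, beside 14.1% lower among all tested probe sets. All 5 BO-112 arrays lay below all 5 Vehicle arrays for 18 genes (background 5.3%), all above for 1 gene (background 3.39%), and the groups overlapped for 26. By the study's own threshold, a B-statistic over 0, no mitosis or spindle gene was called, beside 0.954% of all tested probe sets called lower and 1.23% called higher. The members were also brighter, with a median Vehicle mean of 9.09 against 6.36 over all tested probe sets. In a fit limited to the 12287 probe sets with a mean above 6, 6.49% were called lower and the median change was -0.10. In that fit 18 of the 45 members were called lower, with a median of -0.77.

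In bulk tumor RNA, fewer dividing cells and less of each message per cell cannot be told apart. The number of genes called depended on single arrays: leaving out BO-112 mouse 1, 2, 3, 4 or 5 in turn gave 0, 1, 9, 40 and 12, and leaving out Vehicle mouse 1, 2, 3, 4 or 5 gave 6, 0, 0, 0 and 0, while 44 genes stayed negative each time. The share of all tested probe sets called lower moved as well. It was 0.849%, 1.06%, 1.97%, 8.67% and 2.21% without BO-112 mouse 1 to 5. Without Vehicle mouse 1 to 5 it was 1.81%, 0.62%, 0.666%, 0.735% and 0.708%. Leaving out BO-112 mouse 5 also moved 4 changes by over 1.5 times, to -0.46 for Plk1 (from -0.75 with all arrays), -0.57 for Aurka (from -0.88, then at an adjusted p of 0.0256), -0.34 for Ect2 (from -0.63) and -0.64 for Ncaph (from -0.96).

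**Figure D1:**
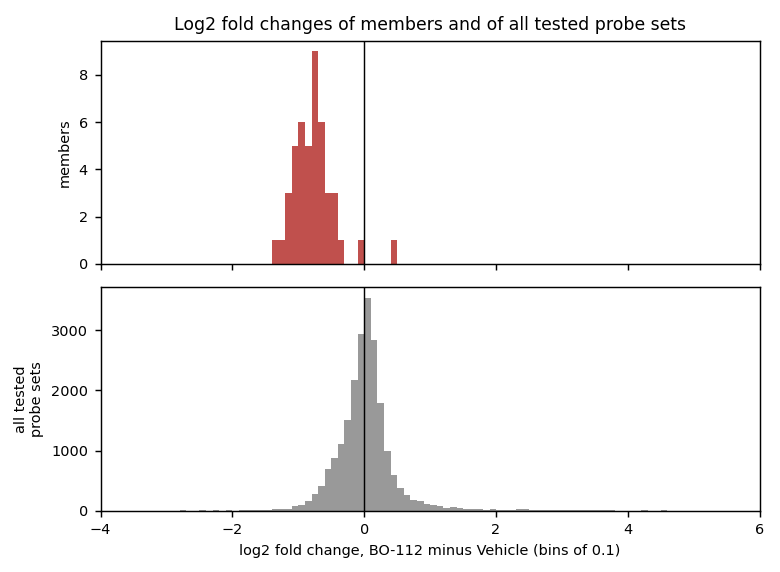
Histograms of the log2 fold change (BO-112 minus Vehicle, horizontal axis, bins of 0.1) of the 45 mitosis and spindle genes (top, number of genes) and of all 21792 tested probe sets (bottom, number of probe sets). The members are centred on a median of -0.77 and all but Pttg1 lie below 0, whereas all probe sets are centred on 0.01.

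Promoters of late cell cycle genes are known for a pair of short elements, the cell cycle genes homology region (searched here as TTTGAA) and the CCAAT box bound by NF-Y (searched as CCAAT), both on either strand and with overlaps allowed. In RefSeq windows of GRCm38.p6 that run from 250 bases before to 50 bases after each gene's start, 37 of the 45 genes had 42 windows. TTTGAA stood in 30 of these (71.4%), against 17.9% of all 32851 windows, CCAAT in 33 (78.6%), against 37.4%, and both in 27 (64.3%), against 6.95%. Of 38 TTTGAA matches in the members' windows, 1 overlapped a CCAAT match. Genes with TTTGAA had a median log2 fold change of -0.77 (27 genes) and genes without it -0.79 (10 genes). Neither motif was found for 6 genes, Nuf2 (-1.07), Ncaph (-0.96), Nusap1 (-0.85), Mad2l1 (-0.73), Birc5 (-0.32) and Pttg1 (0.44), while Espl1, with the change nearest to 0 (-0.10), had both. Cdk1 (-1.01), Cdc20 (-1.06) and Top2a (-0.75), 3 genes of different roles, had both motifs and were lower in BO-112 tumors. Espl1 had both motifs and the smallest change. Nuf2, which fell, and Pttg1, which was higher, had neither. The stretches below hold the last 120 bases before the start of each of these genes. They are printed 5′ to 3′ on the gene's strand, with matches to either motif in capitals (on the other strand TTTGAA reads TTCAAA and CCAAT reads ATTGG).
Cdk1, chr10:69352913-69353032, minus strand: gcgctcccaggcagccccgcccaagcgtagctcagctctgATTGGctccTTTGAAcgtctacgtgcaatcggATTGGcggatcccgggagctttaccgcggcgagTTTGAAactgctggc
Cdc20, chr4:118437344-118437463, minus strand: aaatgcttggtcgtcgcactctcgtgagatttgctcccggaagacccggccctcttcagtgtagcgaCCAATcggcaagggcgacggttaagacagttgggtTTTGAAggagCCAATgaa
Top2a, chr11:99024190-99024309, minus strand: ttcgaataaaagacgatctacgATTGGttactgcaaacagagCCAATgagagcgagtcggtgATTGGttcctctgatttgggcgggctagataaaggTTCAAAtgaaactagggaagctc
Espl1, chr15:102296173-102296292, plus strand: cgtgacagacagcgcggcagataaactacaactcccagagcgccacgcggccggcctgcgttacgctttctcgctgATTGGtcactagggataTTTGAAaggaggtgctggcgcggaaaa
Nuf2, chr1:169531465-169531584, minus strand: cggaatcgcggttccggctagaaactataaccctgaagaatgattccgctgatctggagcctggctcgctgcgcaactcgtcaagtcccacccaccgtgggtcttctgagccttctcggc
Pttg1, chr11:43425982-43426101, minus strand: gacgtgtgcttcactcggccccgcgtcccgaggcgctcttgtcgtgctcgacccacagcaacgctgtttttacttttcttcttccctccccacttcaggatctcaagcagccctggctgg
In Cdk1 a TTTGAA begins 15 bases before the start, in Cdc20 18 bases before it, in Espl1 27 bases before it, and in Top2a 23 bases before it on the opposite strand. A match is a run of letters and no measurement of binding.

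Of the CDK1 switch, 3 of 5 genes fell (60%, beside 2.79% of all tested probe sets). Ccna2, the cyclin of S phase and early mitosis, read 9.35, 8.99, 9.83, 10.01 and 8.71 in BO-112 mice 1 to 5, against 10.42, 10.27, 10.64, 10.31 and 10.41 in Vehicle mice 1 to 5. Every BO-112 array lay below every Vehicle array, and the spread was wider in BO-112 tumors (9.38 ± 0.55 in BO-112 and 10.41 ± 0.15 in Vehicle, SD, n = 5 each). Ccna2 fell by 51.0% (log2 fold change -1.03, SE 0.23, adjusted p = 0.0285). Ccnb2, a B-type cyclin, read 9.13, 8.78, 9.49, 9.80 and 8.85 in BO-112 tumors, against 9.80, 9.88, 9.95, 9.87 and 10.22 in Vehicle tumors. BO-112 mouse 4 lay just below Vehicle mouse 1, the groups did not overlap, and the change was -0.73 (SE 0.19, adjusted p = 0.0479). Cdc25b, the phosphatase that starts CDK1 activation, read 7.45, 7.10, 7.52, 7.73 and 7.33 in BO-112 tumors, against 7.90, 7.85, 8.04, 8.03 and 8.09 in Vehicle tumors. The groups stood apart with a narrow spread in both, so that Cdc25b had the smallest change of its group and the lowest adjusted p of all 45 genes (-0.56, SE 0.12, adjusted p = 0.0278). Cdc25c, the phosphatase that amplifies the switch, had the largest change of its group and read 6.63, 6.81, 7.34, 7.90 and 5.33 in BO-112 tumors, against 7.77, 7.73, 8.38, 8.23 and 7.96 in Vehicle tumors. BO-112 mouse 4 lay within the Vehicle range and BO-112 mouse 5 far below it, below the negative control level of its array, and the change of -1.21 (SE 0.38) did not pass (adjusted p = 0.0845). Cdk1 itself, the kinase of the switch, averaged 8.61 ± 0.73 in BO-112 and 9.62 ± 0.17 in Vehicle tumors, with no overlap and a change of -1.01 (SE 0.29, adjusted p = 0.0661).

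**Figure D2:**
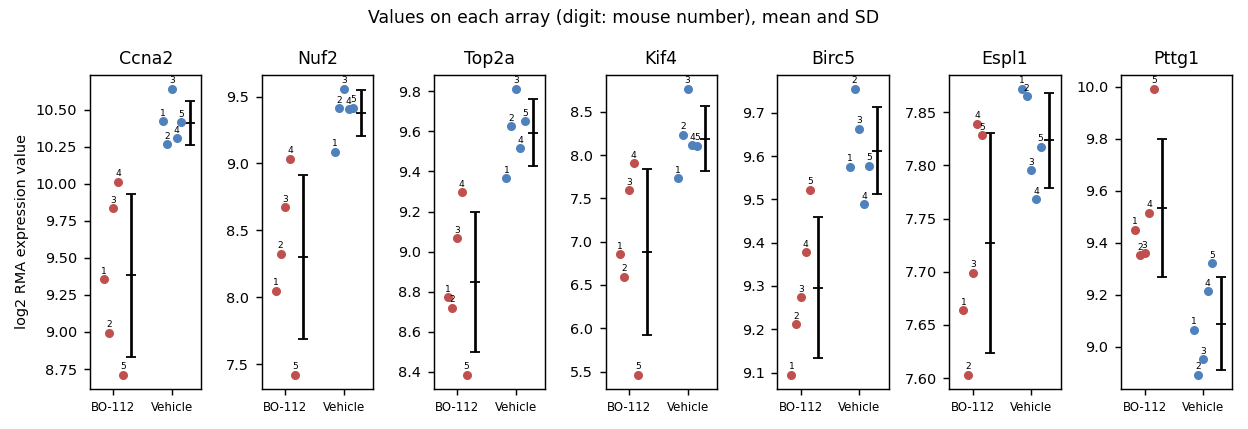
Log2 RMA expression value (vertical axis, a scale for each panel) of 7 genes on each array, BO-112 left and Vehicle right, with the mouse number at each point and the mean and SD (n = 5) beside the points. Ccna2, Nuf2 and Top2a did not overlap between groups, Kif4, Birc5 and Espl1 did, and Pttg1 was higher on every BO-112 array.

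Neither of the mitotic kinases passed the test. Aurka, which matures centrosomes, read 8.51, 8.33, 8.63, 8.90 and 7.05 in BO-112 tumors, against 9.15, 9.11, 9.22, 9.13 and 9.21 in Vehicle tumors. The groups did not overlap, and BO-112 mouse 5 alone lay more than a log2 unit below the other BO-112 arrays (change -0.88, SE 0.28, adjusted p = 0.0871). Plk1, the Polo-like kinase of mitotic entry, read 10.15, 9.65, 10.47, 10.63 and 8.81 in BO-112 tumors, against 10.74, 10.59, 10.97, 10.53 and 10.62 in Vehicle tumors. BO-112 mouse 4 lay within the Vehicle range, and the change was -0.75 (SE 0.29, adjusted p = 0.144).

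The chromosomal passenger complex corrects faulty attachments and guides cytokinesis, and 0 of its 4 genes passed. Incenp, its scaffold, read 7.39, 7.16, 7.85, 7.92 and 6.96 in BO-112 tumors, against 8.20, 8.28, 8.48, 7.88 and 8.13 in Vehicle tumors. Only BO-112 mouse 4 exceeded a Vehicle array, that of mouse 4, and the change was -0.73 (SE 0.19, adjusted p = 0.0504). Birc5, which encodes survivin, read 9.09, 9.21, 9.27, 9.38 and 9.52 in BO-112 tumors, against 9.58, 9.76, 9.66, 9.49 and 9.58 in Vehicle tumors. BO-112 mouse 5 was the highest of the BO-112 arrays here, the reverse of its place for most other members, and the change was -0.32 (SE 0.10, adjusted p = 0.0938). Aurkb, the kinase of the complex, and Cdca8, the subunit known as borealin, had changes of -0.72 (adjusted p = 0.105) and -0.47 (adjusted p = 0.0644).

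Of the 5 spindle assembly checkpoint genes 0 passed, with changes from -1.10 to -0.68. Bub1, a checkpoint kinase at the kinetochore, read 9.11, 8.53, 9.36, 9.69 and 7.49 in BO-112 tumors, against 9.59, 9.89, 10.07, 10.13 and 10.02 in Vehicle tumors. BO-112 mouse 4 exceeded Vehicle mouse 1 alone, and BO-112 mouse 5 was lowest (change -1.10, SE 0.34, adjusted p = 0.0802). Bub3, the partner that brings Bub1 and Bub1b to kinetochores, read 10.93, 10.81, 11.16, 11.32 and 10.09 in BO-112 tumors, against 11.56, 11.43, 11.62, 11.47 and 11.63 in Vehicle tumors. The groups did not overlap, and the change was the smallest of the checkpoint genes at -0.68 (SE 0.20, adjusted p = 0.0661). The checkpoint protein Bub1b, the kinase Ttk and the CDC20 inhibitor Mad2l1 had adjusted p-values of 0.0658, 0.0597 and 0.0887, and Ttk lay below the negative control level in BO-112 mouse 5.

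Centromere and kinetochore genes held the most calls, 4 of 8 (50%, beside 2.79% of all tested probe sets), while the CDK1 switch had the larger share (60%). The 4 called were the genes of the NDC80 complex, the rod that grips the microtubule. Leaving out 1 array at a time, Nuf2 and Ndc80 each passed in 4 of 10 fits, Spc25 in 2 and Spc24 in 1. Spc25 had the largest change and read 7.51, 6.81, 8.11, 8.49 and 7.07 in BO-112 tumors, against 8.48, 8.76, 8.88, 8.68 and 9.17 in Vehicle tumors. BO-112 mouse 4 just exceeded Vehicle mouse 1, and Spc25 fell by 56.4% (log2 fold change -1.20, SE 0.29, adjusted p = 0.0397). Nuf2 read 8.05, 8.33, 8.67, 9.04 and 7.42 in BO-112 tumors, against 9.09, 9.41, 9.56, 9.40 and 9.42 in Vehicle tumors. The groups did not overlap, and Nuf2 fell by 52.5% (-1.07, SE 0.25, adjusted p = 0.0353). Ndc80 read 7.86, 7.42, 7.91, 8.27 and 7.28 in BO-112 tumors, against 8.37, 8.36, 8.85, 8.52 and 8.60 in Vehicle tumors. It too stood apart between groups, with BO-112 mouse 4 nearest to Vehicle, and fell by 42.3% (-0.79, SE 0.18, adjusted p = 0.0346). Spc24 read 7.001, 7.20, 7.04, 7.21 and 7.02 in BO-112 tumors, against 7.42, 7.46, 7.70, 7.35 and 7.80 in Vehicle tumors. Here the BO-112 arrays lay close together (SD 0.10, against 0.19 in Vehicle), and the change was the smallest of the complex at -0.45 (SE 0.11, adjusted p = 0.0415). The centromere histone Cenpa, the kinetochore kinesin Cenpe, Cenpf and Cenpk had changes between -0.88 and -0.54 with overlapping groups and did not pass. Their adjusted p lay between 0.0678 for Cenpe and 0.0902 for Cenpa.

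Of the kinesins and spindle microtubule genes 0 of 8 passed, although the group held the largest change of all members. Kif4, a chromosome-bound kinesin of the central spindle, read 6.86, 6.59, 7.59, 7.91 and 5.46 in BO-112 tumors, against 7.73, 8.23, 8.76, 8.11 and 8.11 in Vehicle tumors. BO-112 mouse 4 exceeded Vehicle mouse 1, BO-112 mouse 5 lay below the negative control level of its array, and the change was -1.31 (SE 0.39, adjusted p = 0.0735). Prc1, the bundler of central spindle microtubules, read 8.01, 7.88, 8.18, 8.63 and 7.41 in BO-112 tumors, against 8.38, 8.58, 8.69, 8.44 and 8.64 in Vehicle tumors. BO-112 mouse 4 lay above 3 of the Vehicle arrays, and the change was -0.53 (SE 0.19, adjusted p = 0.116). The spindle assembly factor Tpx2 came nearest to the threshold (-0.97, SE 0.26, adjusted p = 0.0516), and it and Kif20a, a kinesin of cytokinesis, were the genes of this group with no overlap. Kif11, the motor that separates spindle poles, had a change of -0.92 (adjusted p = 0.0954), and Kif2c, Nusap1 and Kif23 had changes of -0.94, -0.85 and -0.63.

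Cytokinesis was represented by Anln and Ect2, and neither passed. Anln, the scaffold of the contractile ring, read 8.98, 8.79, 9.12, 9.51 and 7.60 in BO-112 tumors, against 9.58, 9.69, 9.99, 9.88 and 10.03 in Vehicle tumors. The groups did not overlap (change -1.03, SE 0.29, adjusted p = 0.0616). Ect2, which activates RhoA at the division plane, read 9.32, 8.43, 9.44, 9.90 and 7.82 in BO-112 tumors, against 9.67, 9.72, 10.04, 9.16 and 9.46 in Vehicle tumors. Only BO-112 mice 2 and 5 lay below every Vehicle array, and Ect2 had, after Espl1, the highest adjusted p of the members (-0.63, SE 0.35, adjusted p = 0.282).

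**Figure D3:**
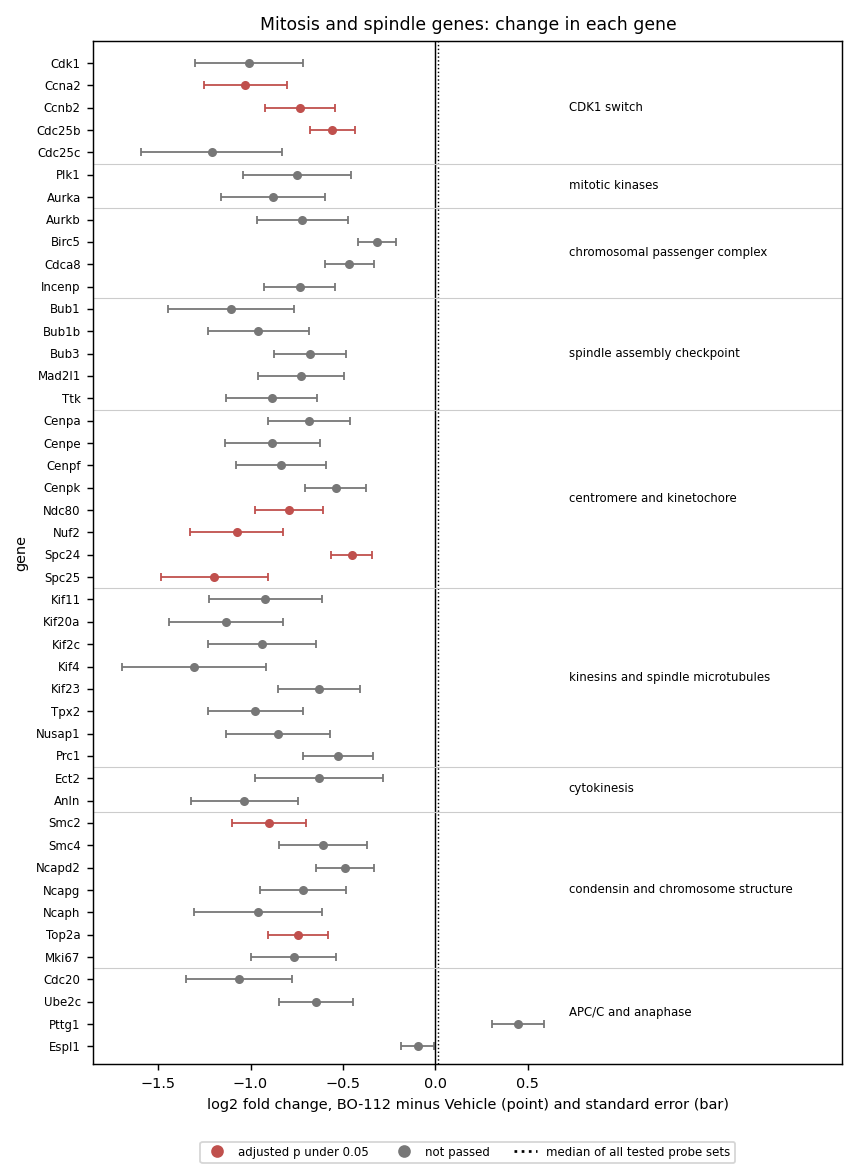
Log2 fold change (BO-112 minus Vehicle, horizontal axis) of each of the 45 mitosis and spindle genes, ordered by role, with its standard error as a bar. The 9 genes at an adjusted p under 0.05 are red and the others grey, and the dotted line marks the median of all tested probe sets, 0.01.

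Condensin and chromosome structure genes had 2 calls of 7 (28.6%, beside 2.79% of all tested probe sets). Top2a, the topoisomerase that untangles sister chromatids, read 8.77, 8.72, 9.07, 9.30 and 8.39 in BO-112 tumors, against 9.37, 9.62, 9.81, 9.52 and 9.65 in Vehicle tumors. No BO-112 array reached a Vehicle array, and Top2a fell by 40.3% (log2 fold change -0.75, SE 0.16, adjusted p = 0.0283). Smc2, the core subunit of both condensins, read 8.20, 8.12, 8.67, 8.90 and 7.73 in BO-112 tumors, against 9.14, 9.11, 9.48, 9.32 and 9.09 in Vehicle tumors. The groups again stood apart, and Smc2 fell by 46.4% (-0.90, SE 0.20, adjusted p = 0.0299). Ncaph, a condensin I subunit, had the largest change of this group and read 8.34, 7.30, 7.96, 8.55 and 6.42 in BO-112 tumors, against 8.44, 8.44, 8.98, 8.64 and 8.87 in Vehicle tumors. BO-112 mouse 4 exceeded 2 Vehicle arrays and BO-112 mouse 5 was lowest, and the change of -0.96 (SE 0.34) did not pass (adjusted p = 0.116). Ncapd2, another condensin I subunit, read 7.49, 7.36, 7.45, 7.80 and 7.14 in BO-112 tumors, against 7.48, 8.05, 8.12, 8.13 and 7.91 in Vehicle tumors. Vehicle mouse 1 lay among the BO-112 arrays, and the change was -0.49 (SE 0.16, adjusted p = 0.0855). Mki67, which encodes the proliferation antigen Ki-67, averaged 11.02 ± 0.56 in BO-112 and 11.79 ± 0.15 in Vehicle tumors (change -0.77, SE 0.23, adjusted p = 0.0720), and Smc4 and Ncapg had changes of -0.61 and -0.72.

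APC/C and anaphase genes were the most varied. Cdc20, the activator of the APC/C in mitosis, read 7.86, 7.13, 8.08, 8.06 and 6.46 in BO-112 tumors, against 8.55, 8.64, 8.89, 8.36 and 8.47 in Vehicle tumors. The groups did not overlap, and the change of -1.06 (SE 0.29) missed the threshold (adjusted p = 0.0541). Pttg1, the securin that restrains separase, read 9.45, 9.35, 9.36, 9.51 and 9.99 in BO-112 tumors, against 9.07, 8.89, 8.95, 9.21 and 9.32 in Vehicle tumors. It was the single member with every BO-112 array above every Vehicle array, highest in BO-112 mouse 5, with a change of 0.44 (SE 0.14) that did not pass (adjusted p = 0.0857). Espl1, which encodes separase, read 7.66, 7.60, 7.70, 7.84 and 7.83 in BO-112 tumors, against 7.87, 7.87, 7.80, 7.77 and 7.82 in Vehicle tumors. The groups overlapped within a narrow range, with a change of -0.10 (SE 0.09, adjusted p = 0.515). Ube2c, the ubiquitin-conjugating enzyme of the APC/C, had a change of -0.64 (SE 0.20, adjusted p = 0.0806) and no overlap.

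Most members moved together from mouse to mouse. In deviations from the group means, 887 of 990 pairs of members correlated above 0, with a median r of 0.87. Such correlations were not computed for other probe sets, so they are not shown to be particular to these genes. Pttg1 (median r with the other members -0.54), Birc5 (-0.20) and Espl1 (-0.03) did not follow the rest, and Spc24 (0.29) followed weakly. The mean deviation of all members from the Vehicle mean was -0.72, -1.00, -0.46, -0.16 and -1.51 in BO-112 mice 1 to 5, against -0.15, -0.04, 0.20, -0.07 and 0.06 in Vehicle mice 1 to 5. BO-112 mouse 5 gave the lowest value of all 10 arrays for 38 of the 45 genes, and BO-112 mouse 4 the highest BO-112 value for 42. BO-112 mice 1, 2, 3 and 5 lay below every Vehicle array for 42, 44, 40 and 42 genes, and BO-112 mouse 4 for 19. Among the Vehicle arrays, mouse 3 held the highest value of all 10 arrays for 29 genes. These counts by array were not taken over all tested probe sets, so how far they are particular to the members cannot be told. The SD was larger in BO-112 than in Vehicle tumors for 43 genes, with a median SD of 0.56 in BO-112 and 0.18 in Vehicle tumors. Over all tested probe sets the SD was larger in BO-112 for 76.1%, with medians of 0.26 and 0.17.

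**Figure D4:**
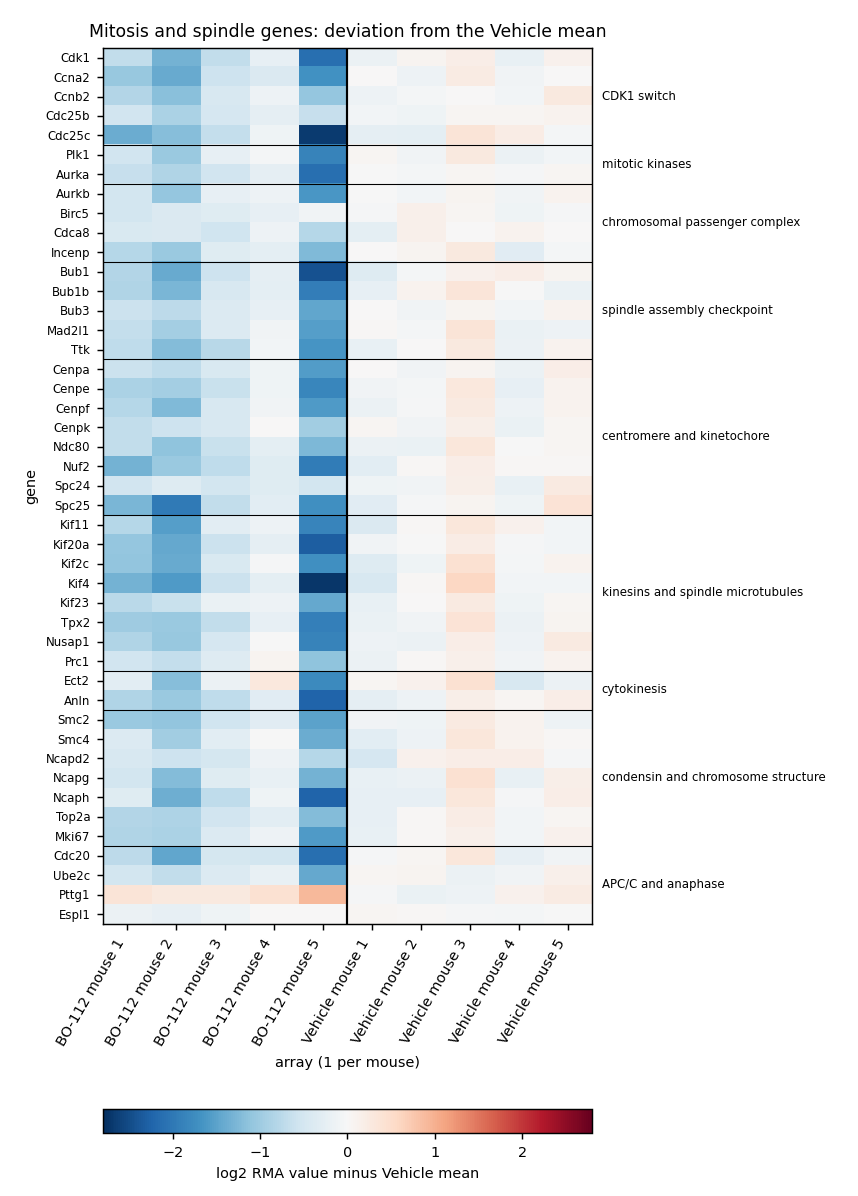
Heat map of the 45 mitosis and spindle genes (rows, by role) on the 10 arrays (columns, BO-112 left of Vehicle), colored by the log2 RMA value minus the gene's Vehicle mean (blue lower, red higher). BO-112 mouse 5 is the darkest column, BO-112 mouse 4 is close to the Vehicle arrays, and Pttg1 is the one row that is red in all 5 BO-112 arrays.

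Levels of other gene lists shifted in the same arrays, and their part in the result was not tested. The melanocyte lineage list, with 1 of 10 genes called lower (Oca2), stood at -0.34, -0.52, -0.19, 0.04 and -1.34 in BO-112 mice 1 to 5, against a range from -0.09 to 0.14 in Vehicle mice. The BO-112 mice ranked in the same order by this list as by the mitosis and spindle genes, mouse 5 lowest and mouse 4 highest. With the melanocyte level as a covariate, the median change of the members was -0.35 and 0 were called. The T and NK cell markers, with 3 of 8 genes called higher (Cd3g, Cd8a and Nkg7), stood between 0.67 and 3.08 in BO-112 tumors and between -0.26 and 0.63 in Vehicle tumors, and were highest in BO-112 mouse 5. Among all tested probe sets 2.79% were called lower and 2.43% higher. Many of these markers were dim in Vehicle tumors: Cd3g exceeded the negative control level on 0 Vehicle arrays, Cd8a on 1 and Nkg7 on 5. The leukocyte markers ranged from 0.24 to 2.37 in BO-112 and from -1.01 to 0.72 in Vehicle tumors, with 0 of 8 called, and the myeloid markers from -0.18 to 2.15 in BO-112 and from -0.96 to 0.69 in Vehicle tumors, with 0 of 6 called. The skeletal muscle markers ranged from -1.42 to 3.39 in BO-112 and from -1.34 to 1.85 in Vehicle tumors, and the keratinocyte markers from -1.14 to 2.85 in BO-112 and from -1.19 to 1.64 in Vehicle tumors, with 0 of 8 called in each list. All 3 B cell markers stayed under the 75th percentile of the negative controls on every array. The array contrast, which is how often positive control probe sets outshone negative ones, was 0.867, 0.845, 0.869, 0.883 and 0.855 in BO-112 mice 1 to 5. It was 0.867 to 0.891 in Vehicle arrays. BO-112 mice 2 and 5, lowest in the members, thus had the lowest contrast of all 10 arrays. They also had the smallest interquartile ranges (2.76 and 2.82) and the lowest array weights (0.31 and 0.23). BO-112 mouse 4, nearest to Vehicle in the members, had the highest contrast of its group. The part of these array differences in the result was not tested. With the contrast as a covariate the members' median change was -0.36 and 0 were called.

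**Figure D5:**
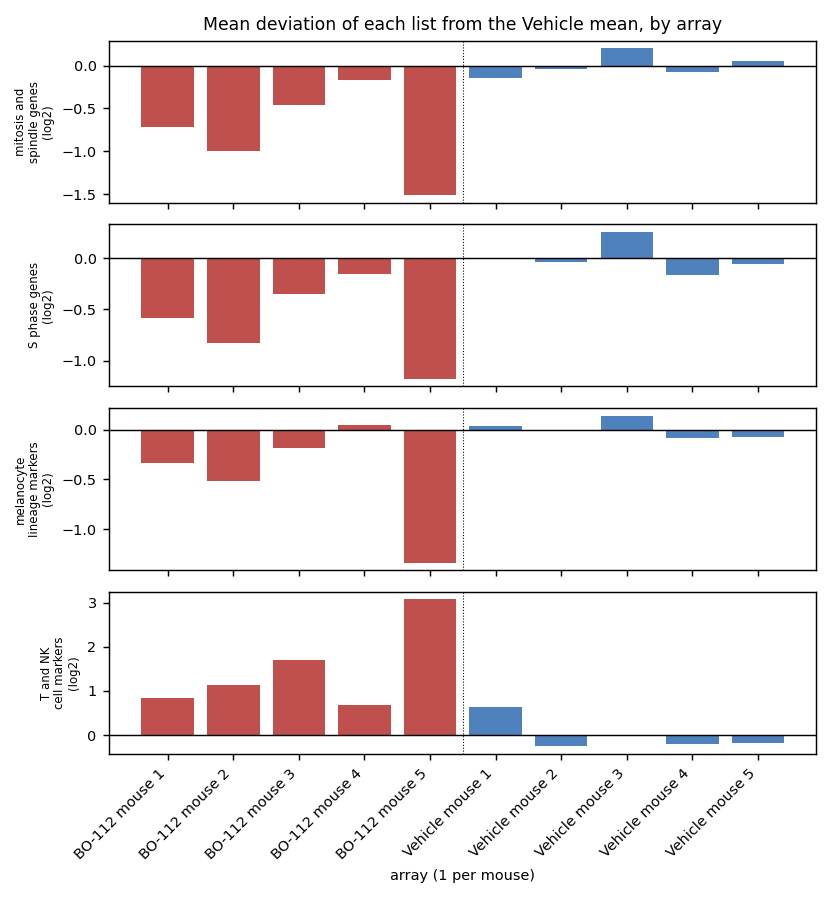
Mean deviation from the Vehicle mean (log2, vertical axes of different length) of the mitosis and spindle genes, S phase genes, melanocyte lineage markers and T and NK cell markers on each array, BO-112 red and left, Vehicle blue and right. BO-112 mouse 5 is lowest in the first 3 lists and highest in the T and NK cell markers, and BO-112 mouse 4 is nearest to 0 among the BO-112 arrays in all of them.

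Other genes of the same processes, from lists that share no gene with the 45, had negative changes in most cases, and few passed the test. Of 114 further mitotic genes in 5 lists, 107 had a negative change, 13 fell (11.4%, beside 2.79% of all tested probe sets), 0 rose and 101 did not pass, with a median change of -0.54. Their median Vehicle mean was 8.36, also above the 6.36 of all tested probe sets. Of 32 other kinetochore genes 3 fell, namely Cenpo (-0.82, adjusted p = 0.0187), Cenpw (-0.56) and Ska1 (-0.53). Ska1 exceeded the negative control level on 0 BO-112 arrays and 1 Vehicle array, so it was dim in both groups. Of 19 other checkpoint and entry genes 4 fell, among them Mad1l1, the anchor of Mad2l1 (-0.80, adjusted p = 0.0130), the CDK-binding protein Cks1b (-0.71) and the histone kinase Haspin (-0.67). Of 31 other spindle and cytokinesis genes 3 fell, Depdc1a (-1.31), Arhgap11a (-1.06) and Depdc1b (-0.93). Depdc1b exceeded the negative control level on 0 BO-112 arrays and 4 Vehicle arrays. Of 15 cohesin and further condensin genes 2 fell, the cohesin subunit Rad21 (-0.48) and its regulator Pds5b (-0.56). Of 17 APC/C subunits and regulators 1 fell (5.88%), Anapc5 (-0.65, adjusted p = 0.0243).

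Genes of other cell cycle steps stood beside them as follows, where 2.79% of all tested probe sets were called lower and 2.43% higher. Of 35 S phase genes 8 fell (22.9%) and 0 rose, with a median of -0.70. Among those that fell were the ribonucleotide reductase subunit Rrm1 (-0.98), the clamp loader subunit Rfc2 (-0.88) and the helicase subunit Mcm6 (-0.87). The S phase list stood at -0.58, -0.83, -0.35, -0.15 and -1.18 in BO-112 mice 1 to 5, against a range from -0.17 to 0.26 in Vehicle mice, the same order of BO-112 mice as for the mitosis and spindle genes. Of 19 DREAM and E2F transcription factors, which control these genes, 1 fell (5.26%), Lin54 (-0.64, adjusted p = 0.0498), with a median of -0.27. A single call in so short a list is little to set against the share of all tested probe sets. Of 11 G1 cyclins and CDK inhibitors 1 fell (9.09%) and 1 rose, and the median was 0.00. Among these Cdkn2c, the inhibitor p18, fell (-0.94, SE 0.21, adjusted p = 0.0283) and Cdkn1a, the inhibitor p21, rose by 55.8% (0.64, SE 0.15, adjusted p = 0.0353), with averages of 11.24 ± 0.32 in BO-112 and 10.60 ± 0.12 in Vehicle tumors (SD, n = 5 each) and no overlap.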

How the data were processed

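The authors normalized Clariom S Mouse arrays with RMA (version not given in the sources used here), so each deposited value is a log2 expression level of a probe set. This removes a shift shared by most transcripts and compresses dim probe sets. Of 29129 rows, 6923 control probe sets were set aside, and the study's filter (over 4 on at least 3 arrays of a group) kept 21792 of 22206. The paper reports slightly fewer probe sets for this criterion, so the tested set is not identical to the published one. All 10 arrays entered a fit without covariates in limma 3.58.1 under R 4.3.3 (lmFit, eBayes), whose two-sided p-values were adjusted over all tested probe sets (Benjamini-Hochberg, 0.05). The number of arrays limits the precision. Symbols came from the platform annotation. A list level averages, over the list, each gene's distance to its Vehicle mean. The members, the 8 pathway lists and the 10 marker lists were chosen with earlier results of these data known. Arrays were described gene by gene for the largest and smallest change of each role, each call and any opposite sign, and in each pathway list for up to 3 calls of largest change. The calculations were tested on simulated data. Alternatives are given in the closing section.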

Additional observations from a re-analysis of the deposited data

Results flagged for a closer look

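Pttg1 in BO-112 mouse 5 read 9.99, against 9.35 to 9.51 in the other 4 BO-112 mice, a gap of 0.746 of the group's range where Dixon's limit for 5 samples is 0.71. It was 1 of 90 groups examined (45 genes in BO-112 and in Vehicle tumors), and chance marks about 1 group in 20.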

How the results depend on the processing

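The median change of the mitosis and spindle genes was negative under every alternative run, and 44 of 45 genes stayed negative except with the melanocyte level as a covariate (43), where Ect2 turned to 0.10. That median was -0.36 with the array contrast and -0.35 with the melanocyte level as a covariate, and -0.45 without BO-112 mice 2 and 5. The count of members called lower (9) was less stable. With a mean above 6 it was 18 (6.49% of all probe sets in that fit were lower), and with array weights 22 (3.97%). With muscle and keratinocyte levels as covariates it was 25, with 1 member higher (4.24% of all probe sets lower). Without BO-112 mice 2 and 5 it was 4 (1.54%). It was 0 with either of the other covariates, without moderation or by the B-statistic, and 0 to 40 leaving out 1 mouse. The mouse numbers name separate mice, so the main fit took the arrays as unpaired. Same-numbered deviations correlated between -0.31 and 0.39, and so few arrays cannot decide whether the numbers pair them in another way. With the mouse number as a replicate block, 0 members, 27 of all probe sets lower and 75 higher, and 1 lower and 0 higher of the other pathway genes were called.

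Over all probe sets, the 609 lower and 529 higher calls became 137 and 138 without moderation, 6 and 21 with the contrast, 923 and 798 with muscle and keratinocyte levels, 97 and 202 with the melanocyte level, and 208 and 267 by the B-statistic. Calls were 866 lower and 860 higher with array weights, and 333 lower without BO-112 mice 2 and 5. With a mean above 6 they were 797 lower and 566 higher, of 12287 probe sets. Leaving out one mouse gave 135 to 1886 lower and 211 to 1249 higher. Of the other pathway genes, 23 were lower and 1 higher. Lower calls were 2 without moderation, 9 without BO-112 mice 2 and 5, 0 with the contrast or the melanocyte level, 37 with muscle and keratinocyte levels, 6 by the B-statistic, and 1 to 92 leaving out one mouse. Higher calls were 0 with median centring, without moderation, with the contrast and by the B-statistic, 2 with quantile normalization, 3 with array weights or without BO-112 mice 2 and 5, and 0 to 1 leaving out one mouse. The cause of these differences was not tested. Each member had 1 probe set, so a mean over probe sets could not differ. Small changes of dim genes are limited by signal over background.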
